A study of Sus scrofa with 9 samples.

Results

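The miRNA profile of porcine MII oocytes was described from the 3 libraries of untreated MII oocytes, out of 9 libraries in the series. MII oocytes are mature eggs that wait, unfertilized, in metaphase of meiosis II. The oocytes came from ovarian follicles of postpubertal Long White gilts collected at a slaughterhouse, were matured in vitro inside their cumulus cells, and were then stripped of these cells with hyaluronidase and vortexing. RNA was prepared from a large pool of oocytes. No source says whether the 3 libraries came from separate pools, so the spread between them may be technical, and the profile describes pooled eggs rather than any single egg. All counts in the 3 oocyte columns of the deposited miRNA table were used, and no other group was compared with them. Of the 1313 names in the table, 597 had a count in at least 1 oocyte library and 716 were listed at 0 in all 3.

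miRNAs are short RNAs that guide Argonaute proteins to messenger RNAs and lower their translation or stability. Each is cut from a hairpin precursor, and the strand from the 5′ side (5p) or from the 3′ side (3p) may be kept. Bases 2 to 8 of the strand, the seed, do most of the pairing with a target, and miRNAs that share a seed form a family. The ends of a miRNA can also vary by a base or more, which gives variants called isomiRs. A fully grown oocyte transcribes little, so that the RNA of an MII oocyte was mostly stored during growth. Levels are given in CPM, which is the count as a part of its library total, scaled to 1000000, and shares are percent of that total. The libraries were similar in depth, with totals from 289183 to 381674 counts, so that a share near 50% carried a 95% Wilson interval of at most ±0.182 percentage points. If a 0 means that no read was seen, the true level could be up to a floor of 3 counts. These floors were 7.86 CPM in library 1, 10.0 CPM in library 2 and 10.4 CPM in library 3. The smallest value above 0 was 2.5 counts in each library. In library 3 it was held by 2 miR-494 names with identical counts, as if a larger count had been divided. Whether low counts were removed before deposit is not stated, and if so a name at 0 could lie above these floors. Intervals and floors cover counting error only, because PCR copies were not told apart. Adapters are ligated to some small RNAs more readily than to others, and the part of this in the order of levels was not tested.

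Full sequences were at hand for 4 of the listed names, as synthetic mimics. They are printed in lower case with the seed (bases 2 to 8) in capitals. They are shown because they form pairs with a shared seed: a pair of miR-125 names of the pig, and a pair of names with prefixes of cattle and mouse that are among the most abundant names of other species in these eggs.
bta-miR-2478_L-2: aUCCCACUucugacacca
mmu-miR-3968_L-3_1ss14AT: aUCCCACUccugacacca
ssc-miR-125a_R-1: uCCCUGAGacccuuuaaccugu
ssc-miR-125b: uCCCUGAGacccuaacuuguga
The first pair are 18 bases long and differ at 1 position, U9C, counted from 1 at the 5′ end with the base of bta-miR-2478_L-2 first. Both end in ACACCA. As background, CCA is the 3′ end that is added to every mature transfer RNA, and whether either RNA is a true miRNA or a piece of a longer RNA of another kind was not tested. The miR-125 names are 22 bases long, share their first 13 bases and differ at 7 positions. The sequences of the other names were not used here.

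A single miRNA made up 47.4% ± 1.77 (SD, n = 3) of the profile. ssc-miR-205_R+1, the pig miR-205 with 1 base added at its right end by the usual reading of the suffix, was at 457971 CPM in library 1, 470040 CPM in library 2 and 492847 CPM in library 3. Its share had Wilson intervals from 45.6 to 46.0%, from 46.8 to 47.2% and from 49.1 to 49.5%, so that the libraries differed by more than counting error. miR-205 is known as an epithelial miRNA that lowers the repressors ZEB1 and ZEB2. Its gene MIR205 lies at 9:133517078-133517146 of Sscrofa11.1, by RefSeq. The next name, ssc-miR-21-5p_R+1, was lower by a factor of 6.08 in the mean.

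miR-21, which targets PDCD4 and is often high in growing tissue, was at 81659, 80837 and 71031 CPM (MIR21, 12:36065267-36065358). ssc-miR-128, a miRNA best known from neurons, was at 72693, 64659 and 64897 CPM. The ranges of these names overlapped, but miR-21 was the higher in each of the 3 libraries. ssc-miR-128 stood on 2 lines of the table with identical values, and RefSeq has 2 genes for it, MIR128-1 at 15:16273557-16273638 and MIR128-2 at 13:21038445-21038524. Its level is the sum of both lines. The gap between miR-21 and miR-128 therefore depends on whether reads were divided between the lines, which was read from the values: 57.2% of the values above 0 on repeated lines were not whole numbers, against 9.53% on single lines. Among the 15 leading names, miR-125b, let-7a, miR-103, miR-30c and miR-92a also stood on 2 lines. With such lines counted once, the miR-128 family held 3.67% ± 0.268 of the counts and lay below the miR-30 family at 4.50% ± 0.317.

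Next came ssc-miR-148a-3p and ssc-miR-320_R+1. miR-148a, which is known to target DNA methyltransferases, was at 28249, 27308 and 26105 CPM (MIR148A, 18:46415213-46415280). miR-320, whose hairpin is made without the enzyme Drosha, was at 24652, 25967 and 27851 CPM (MIR320, 14:6520901-6520980). miR-148a was the higher in libraries 1 and 2 and the lower in library 3, so that their order was not resolved. Both stayed above all names that followed.

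In the group of names that followed, down to miR-103, the ranges of neighbours overlapped throughout. ssc-miR-125b, the vertebrate relative of the worm timing miRNA lin-4, was at 20054, 18771 and 19417 CPM (MIR125B-1, 9:49109435-49109514). ssc-miR-30a-5p_R+2, a repressor of the autophagy gene BECN1, was at 16674, 19146 and 19725 CPM, and ssc-miR-10b, encoded in the HOXD cluster, was at 18532, 18250 and 16680 CPM. MIR30A lies at 1:51412827-51412933 and MIR10B at 15:81951644-81951723. Library 1 was the lowest of the 3 for miR-30a and the highest for the other two. ssc-miR-30d_R-2 was at 14452, 16078 and 17266 CPM. Like ssc-miR-182, at 10509, 12629 and 13064 CPM, it was lowest in library 1 and highest in library 3. ssc-let-7a was lowest in library 3, at 15135, 13809 and 9776 CPM. ssc-miR-103, encoded in introns of pantothenate kinase genes, was nearly the same in each library, at 11158, 11194 and 11183 CPM. Its coefficient of variation of 0.167% was the smallest among the names with a mean of at least 100 CPM. The Wilson interval of its share, from 1.08 to 1.15% in library 1, was wider than the differences between the libraries. So close a match is therefore finer than the counts can resolve.

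Below these, ssc-miR-26a, which targets EZH2, was at 8011, 8032 and 6811 CPM, with every library under every value of miR-103. ssc-miR-30c-5p was at 7003, 6868 and 6785 CPM and ssc-miR-92a at 6403, 6460 and 6570 CPM. These did not overlap, although the means differed by a factor of only 1.06. Among the 15 leading names, the ranges of neighbours were separate below miR-205, miR-128, miR-320, miR-103 and miR-30c, and overlapped at every other step.

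**Figure D1:**
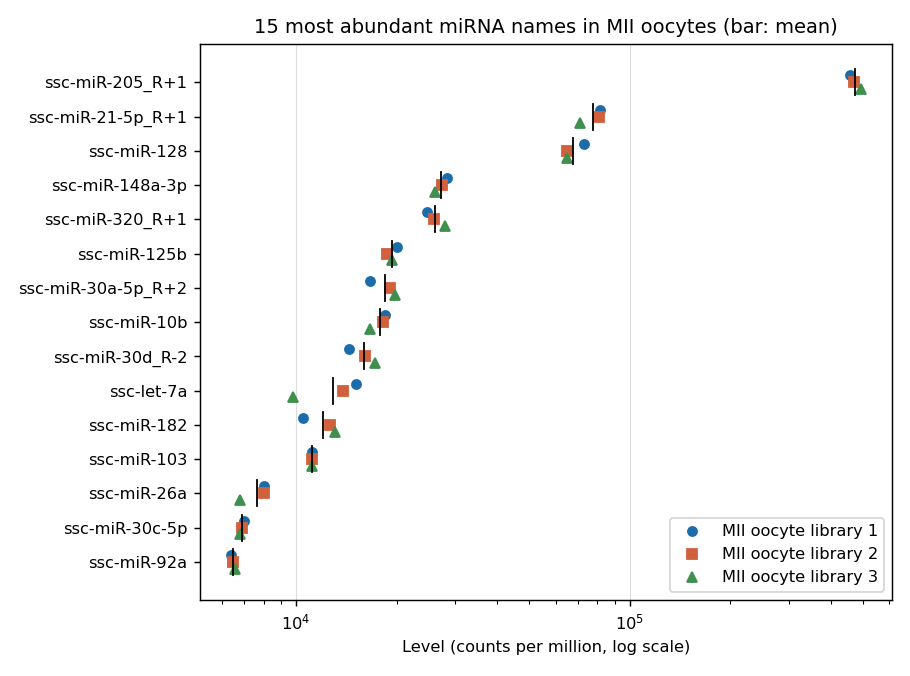
Level in CPM (log axis) of the 15 most abundant names, with a symbol for each of the 3 MII oocyte libraries and a vertical bar at their mean. ssc-miR-205_R+1 stands alone at 457971 to 492847 CPM, while the libraries of ssc-let-7a spread from 9776 to 15135 CPM.

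The profile was strongly concentrated. The 10 most abundant names held 75.0, 75.5 and 76.9% of the counts (mean 75.8% ± 0.978, SD, n = 3), and the first 50 held 90.8% ± 0.431. To reach 90% of the counts took 49, 45 and 45 names in the 3 libraries, and to reach 99% took 210, 189 and 192. The libraries drew on nearly the same names, since 9 names were among the first 10 of every library out of 11 that were there in any, and 49 were among the first 50 of every library out of 52.

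When names were joined by miRNA number, with arm, suffix and species ignored, 226 families were listed, of which 100 had more than 1 name. These families by number are not the seed families described above. miRNAs that share a seed under different numbers were counted apart, and both strands of a hairpin were joined. A seed family spread over several numbers could therefore hold more than the shares given here. Of all 226, 11 were over 1% of the counts and 59 were over 0.1%. The 15 largest held 84.0% ± 0.497 together. miR-205 held 47.4% ± 1.77, miR-21 held 7.78% ± 0.591 and miR-128 held 6.74% ± 0.457, each almost entirely from 1 name. The pig name supplied 99.9% of the miR-205 family, and the rest was ocu-miR-205-3p_1ss19TC, the opposite strand under a rabbit name.

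The miR-30 family was the largest made of several abundant miRNAs. Its 7 names held 4.14, 4.58 and 4.74% of the counts, with library 1 the lowest. miR-30a-5p gave 41.2% of the family, miR-30d 35.5% and miR-30c 15.5%. ssc-miR-30e-5p was at 2053 ± 194 CPM and ssc-miR-30b-5p at 837 ± 5.57 CPM. The 5p strands of these share a seed. The family as a whole stood above every single name after miR-128.

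The let-7 family, which is known to hold back LIN28, HMGA2 and RAS genes, held 3.53, 3.27 and 2.39% of the counts over 14 names, with library 3 the lowest. let-7a gave 42.2% of it, let-7f 21.1% and let-7g 13.6%. The miR-148 family was at 2.77% ± 0.106, with miR-148a-3p as 98.4% of it, and miR-320 at 2.63% ± 0.158. The libraries of let-7, miR-148 and miR-320 overlapped each other in turn. miR-125 followed at 2.19% ± 0.0628, of which miR-125b gave 88.8% and miR-125a_R-1 gave 9.72%, and miR-10 at 1.80% ± 0.0984, of which miR-10b gave 99.2%. ssc-miR-10a-5p, its close relative from another HOX cluster, was at only 37.2 ± 8.29 CPM.

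The last families over 1% were miR-182 at 1.21% ± 0.137 and miR-103 at 1.12% ± 0.00284. miR-26 followed at 0.911% ± 0.108, and in it ssc-miR-26b-5p_R-2_1ss11TC was at 1691, 1338 and 908 CPM. miR-92 was at 0.820% ± 0.0183 and miR-664 at 0.546% ± 0.0477. miR-9993, at 0.560% ± 0.0221, was the only family among these 15 with no pig name, and its 5 names carried the prefix pal, that of the bat Pteropus alecto. Over all families, 70 had no pig name, and they held 4.52% of the counts.

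**Figure D2:**
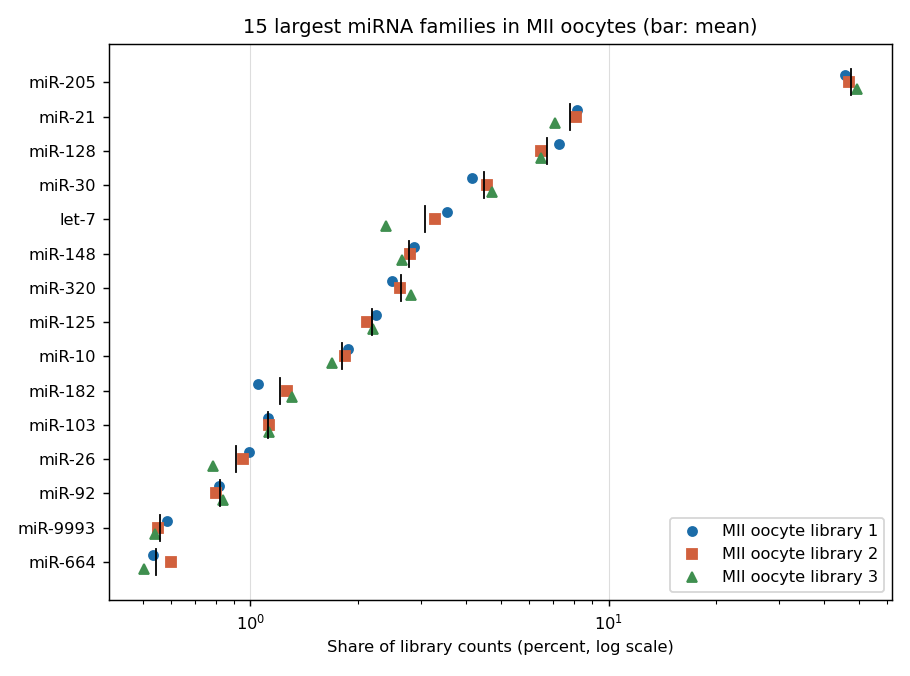
Share of library counts in percent (log axis) of the 15 largest miRNA families by number, with a symbol for each of the 3 MII oocyte libraries and a vertical bar at their mean. Shares fall from 47.4% for miR-205 to 0.546% for miR-664, and let-7 shows the wide gap of library 3, at 2.39%, from the other libraries.

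The arm of origin was given by some names and not by others. Names with no arm numbered 218 and held 74.7, 75.1 and 76.9% of the counts. Names of the 5p arm numbered 191 and held 17.8, 17.8 and 16.2%, and the 188 names of the 3p arm held 7.43, 7.15 and 6.96%. Of the counts that had an arm in their name, 70.6% ± 0.693 were 5p. The 3 most abundant 5p names were miR-21-5p, miR-30a-5p and miR-30c-5p, given above. The 3 most abundant 3p names were miR-148a-3p, ssc-miR-27b-3p at 4194 ± 218 CPM and ssc-miR-664-3p at 3267 ± 508 CPM.

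Most of the unassigned counts belonged to miRNAs whose arm is well known. miR-205, miR-128, miR-320, miR-125b and miR-10b were the 5 most abundant names without an arm. When the 37 such names of at least 1000 CPM were given the arm of their human counterparts from general knowledge, 21 became 5p, 9 became 3p and 7 were left. The 5p arm then held 76.6% ± 0.716 of the counts, the 3p arm 18.97% ± 0.557, and 4.44% ± 0.168 remained unassigned. The large share of 5p in that reading was mostly miR-205 itself.

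Both arms of the miR-205 hairpin were listed. ocu-miR-205-3p_1ss19TC was at 435, 368 and 415 CPM, so that miR-205 exceeded its partner by factors of 1053, 1279 and 1188. Among names that state an arm, 35 hairpins had both arms listed and at least 10 counts, summed over the arms, in every library, out of 39 with both arms at any count. The 5p arm was the higher in all 3 libraries in 20 of the 35, the 3p arm in 12, and the order differed between libraries in 3. A single arm held over 90% of the pair, in the mean, in 15 of the 35. The 20 include miR-2904-3, with 6 names of the 5p arm and 3 of the 3p arm, and miR-9277, with 4 and 3. In both, some 5p and 3p names had identical counts, so their order may reflect how many names were listed per arm.

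Strong asymmetry in either direction was seen among abundant hairpins. For miR-148a the 3p arm had 27221 ± 1075 CPM against 193 ± 23.4 for the 5p arm, which was 0.706% ± 0.101 of the pair. For miR-30a the 5p arm held 97.1, 97.5 and 97.6% of the pair, with the 3p arm at 496 ± 6.09 CPM. For miR-30e, 93.8% ± 0.205 was 5p. miR-22-3p was the main strand of its hairpin, with 2.67% ± 0.962 of the pair on the 5p side. The miR-99 family had both arms named too, but its 3p name was listed in library 1 alone, at 15.7 CPM.

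In other hairpins both strands were well above the floor. miR-664 had 41.1, 36.0 and 43.9% of its pair on the 5p side, with 2188 ± 30.8 CPM against 3267 ± 508 CPM, so that the spread of the pair lay in the 3p arm. miR-423 had 67.3, 68.6 and 64.8% on the 5p side and miR-151 had 82.1, 79.7 and 75.0%. miR-574 was steady at 22.9% ± 0.238, and miR-140 at 15.1% ± 0.498. let-7d was close to even at 54.4, 47.6 and 54.1%, the 3p strand being ahead only in library 2. miR-28 was at 60.0, 52.3 and 34.8%, with the 3p strand ahead in library 3 alone. The other hairpin of unresolved order was miR-129b, at 31.0, 55.9 and 36.0%. In the let-7 family as a whole, 92.8% ± 0.407 of the counts with an arm in the name were 5p.

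**Figure D3:**
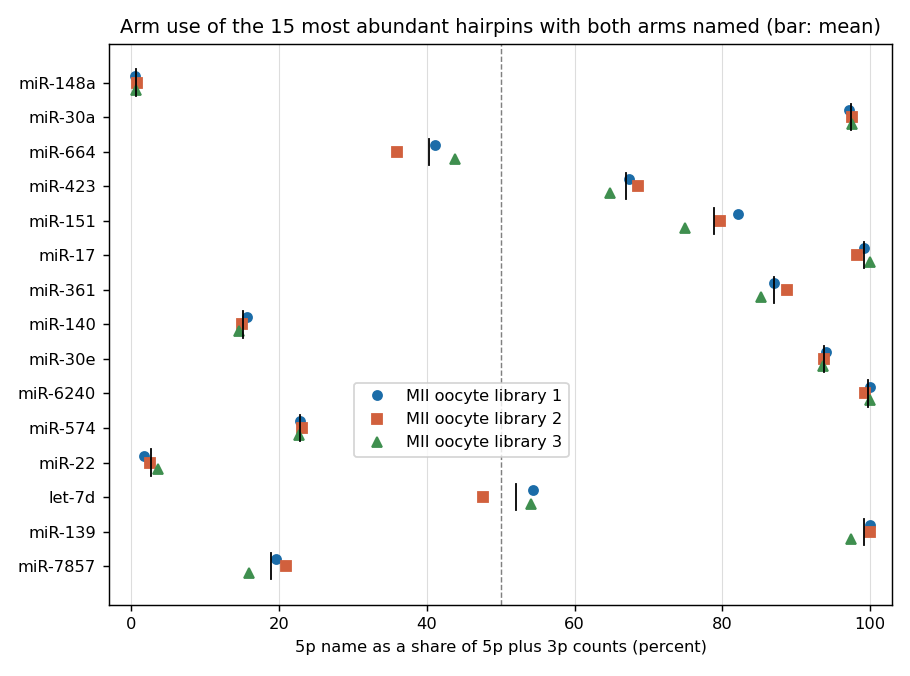
Share of 5p in the counts of both arms, in percent, for the 15 most abundant hairpins with both arms named and at least 10 counts over both arms in every library, with a symbol for each of the 3 MII oocyte libraries and a vertical bar at their mean. The dashed line marks equal use, near which let-7d lies, while miR-148a at 0.706% and miR-30a at 97.4% lie far from it on opposite sides.

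Suffixes in the names mark isomiRs. Their meaning was not stated in the sources used here, and they are read by common usage: L and R for the 5′ and 3′ end, a sign and number for bases gained or lost there, and ss for a substitution with its position. A name with several marks was put in 1 class, ss before L before R. Names of class R+ numbered 82 and held 60.9, 62.3 and 63.7% of the counts. The 327 names with no suffix held 31.9, 30.4 and 29.0%. Class R- held 4.26% ± 0.165 in 58 names, ss held 2.26% ± 0.0756 in 87 names and L held 0.722% ± 0.0395 in 43 names.

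The lead of R+ was a matter of few miRNAs. miR-205_R+1 alone was 76.0% ± 1.21 of the class, and with miR-21-5p_R+1 and miR-320_R+1 it made 92.7% ± 0.194. When miR-205_R+1 was left out of the profile, names without a suffix came first with 57.8% ± 0.914, and R+ had 28.4% ± 0.544. With miR-205 in the profile, R+ was highest and no suffix lowest in library 3. Without it, library 2 was the highest for R+ and library 1 for no suffix.

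Right-end changes were small in most counts. Names with 1 added base at the right end held 60.0% ± 1.27 of all counts, those with no change there, PC names aside, 31.3% ± 1.47, and those with 1 lost base 2.56% ± 0.00591. Gains of 2 bases held 2.24% ± 0.160 and losses of 2 held 2.47% ± 0.116, most of the latter from miR-30d_R-2. After miR-30d, class R- was led by ssc-miR-191_R-1 at 3775, 3897 and 4246 CPM and ssc-miR-183_R-1 at 2182, 2366 and 2151 CPM. The left end, which sets the seed, was unchanged in names that held 97.4% ± 0.0860 of the counts, PC names again aside. Of names with a changed left end, the most abundant was mmu-miR-3968_L-3_1ss14AT, which its substitution put in class ss. Class L itself was led by bta-miR-2478_L-2 at 3671, 3766 and 3551 CPM, ssc-miR-29a-3p_L-1R-1 at 779 ± 114 CPM and hsa-miR-4454_L-2 at 753 ± 92.3 CPM. bta-miR-2478_L-2, whose sequence is printed above, was highest in library 2, and the other two were highest in library 1.

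Substitutions were named in 87 names, 86 of them with a single change, which made 88 changes. Transitions numbered 52 and transversions 36. T-to-C was named 15 times, A-to-G 14 times and G-to-A 13 times. The change that held most counts was A-to-T, with 9 names and 6358 CPM, of which mmu-miR-3968_L-3_1ss14AT gave 4192, 4431 and 4122 CPM. Position 1 was named in 4 changes, positions 2 to 8 in 23 and later positions in 61. Names of other species supplied 80 of the 87, and the 7 pig names were led by ssc-miR-106a_R-1_1ss1AC at 3037, 3004 and 3060 CPM. Those values were the same in each library as those of ssc-miR-17-5p, which has no suffix, as if the same reads stood under both names. The counts therefore do not tell miR-106a and miR-17 apart, and this substitution cannot be read here as a variant of miR-106a. Next in the class was hsa-miR-7977_1ss6AG at 2266 ± 143.7 CPM. For names of other species, a substitution is a difference from the sequence of that species and says nothing on its own about variation in the pig.

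The suffix of a pig name says which variant stood for it in the table, not how its variants were spread. Suffixes aside, 222 pig names occurred with exactly 1 variant and only ssc-miR-10386 had 2. Among names of other species, 128 had 1 variant and 27 had more, up to 13 for cgr-miR-1260.

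By prefix, names of the pig (ssc) were 37.5% of the 597 names and held 93.3, 93.6 and 93.6% of the counts. Names of other species were nearly as many, 220, but held 5.55, 5.38 and 5.31%. Names with the prefix PC, whose meaning was not stated, numbered 153 and held 1.13, 1.03 and 1.06%. The median level was 215 CPM for pig names, 26.8 CPM for those of other species and 10.8 CPM for PC names. At least 1000 CPM was reached by 55 pig names, 16 of other species and 2 PC names.

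Names of other species carried 19 prefixes. pal (Pteropus alecto) held 1.00% ± 0.0291 of the counts, cfa (dog) 0.993% ± 0.0120, mmu (mouse) 0.846% ± 0.00676 and eca (horse) 0.567% ± 0.00528. Only 65 of the 220 names belonged to a family that also had a pig name, such as cfa-let-7b at 1858 ± 51.2 CPM, and these held 0.899% ± 0.0150. The rest held 4.52% ± 0.108. The 3 most abundant were mmu-miR-3968_L-3_1ss14AT, cgr-miR-1260 at 4142, 4004 and 3804 CPM, and bta-miR-2478_L-2. They stood near the level of well-known pig miRNAs such as ssc-miR-27b-3p. Within names of other species, 33.4% ± 0.413 of the counts were in class ss and 10.2% ± 0.2996 in class L, and only 9.64% ± 0.520 in R+.

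PC names were led by PC-3p-3013_1576 at 2701, 2563 and 2528 CPM, PC-3p-1269_4334 at 1417, 1434 and 1511 CPM and PC-5p-2618_1845 at 789, 825 and 792 CPM. Their order was the same in each library. None of the PC names had a suffix, and 64.0% ± 1.44 of their counts were 3p. Names of other species also had more 3p than 5p, at 19.8% ± 0.757 against 15.0% ± 0.744 of their counts, while pig names had more 5p, at 17.2% ± 1.06 against 5.80% ± 0.150. The larger part of both had no arm in the name, 65.2% ± 0.456 for other species and 77.0% ± 1.20 for the pig. This contrast therefore covers only the smaller part of the counts of each.

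**Figure D4:**
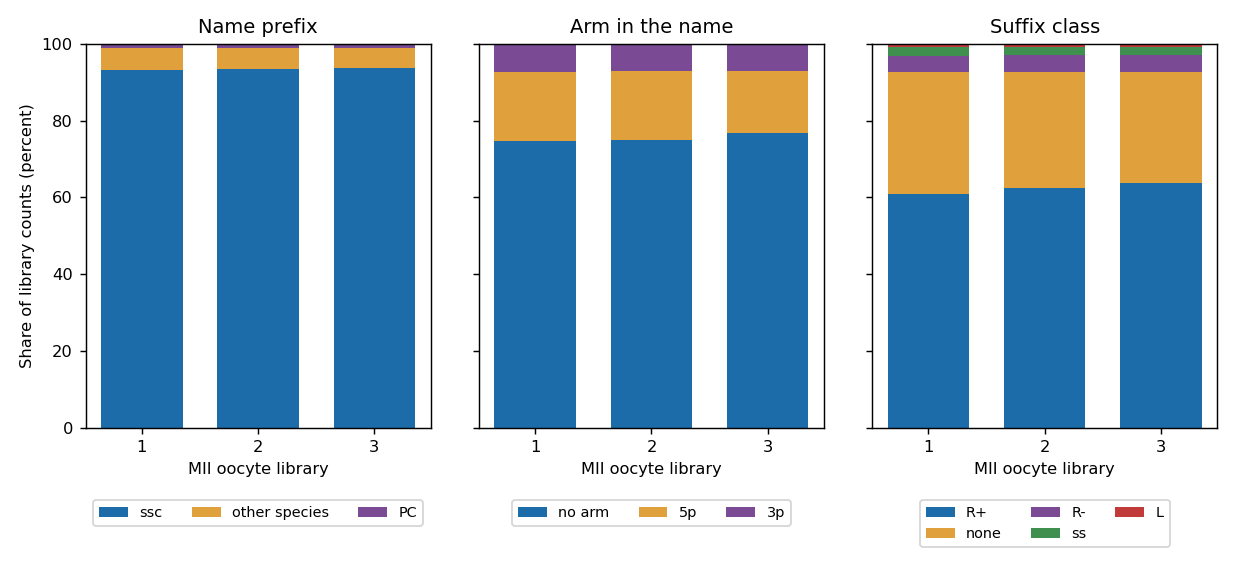
Share of library counts in percent, stacked from 0 to 100, by name prefix, by arm in the name and by suffix class, for each of the 3 MII oocyte libraries. Pig names fill 93.3 to 93.6%, names without an arm 74.7 to 76.9%, R+ 60.9 to 63.7% and names without a suffix 29.0 to 31.9%.

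All but 25 of the pig names matched a miRNA gene of RefSeq. Genes that had a name of their own and lay within 10000 bases of each other formed 21 clusters with 49 of 149 such genes, and held 6.56% of the counts. Members of a cluster are often cut from a single transcript, yet their levels differed: the ratio of the highest member to the lowest had a median of 7.80, and was over 10 in 7 clusters. Some of the lowest members rested on few counts, and only clusters whose members are clear of the floor are described here, apart from the miR-17 cluster.

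On chromosome 4, MIR30D (4:6948669-6948747) was at 14452, 16078 and 17266 CPM and MIR30B (4:6952794-6952869) at 833, 835 and 844 CPM, a ratio of 19.02. The miR-183, miR-96 and miR-182 cluster, known from sensory organs, spans 4645 bases of chromosome 18. Its members were at 2233 ± 116 CPM for miR-183, 897 ± 67.9 for miR-96 and 12067 ± 1367 for miR-182. miR-182 was the highest in each library, and was lowest in library 1 while miR-183 was lowest in library 3.

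The miR-17 cluster on chromosome 11, known to promote cell growth, had 4 members with a gene of their own. MIR20A was at 4873, 4308 and 3755 CPM and MIR17 at 3063, 3061 and 3060 CPM, the latter with a 5p name whose counts were identical to those of miR-106a. MIR18A was at 60.3, 60.2 and 58.8 CPM and MIR19A at 18.3, 36.8 and 20.7 CPM, which was 6 to 11 counts per library. Of these, miR-19a was the member near the floor.

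Other clusters differed in how even they were. miR-125a was at 2146 ± 157 CPM, let-7e at 822 ± 181 and miR-99b at 1548 ± 164, all from within 715 bases of chromosome 6. miR-99a was at 3796 ± 180 CPM and its neighbour let-7c at 486.5 ± 44.9. miR-27b was at 4194 ± 218 CPM and miR-23b at 1644 ± 84.2, while miR-23a at 394 ± 18.0 and miR-27a at 280 ± 19.8 stood in the opposite order. miR-191 was at 3973 ± 245 CPM against 116 ± 10.9 for miR-425, a ratio of 34.1 over 570 bases of chromosome 13.

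Families that background knowledge ties to a cell type were summed to see which other RNA the libraries could hold. Few miRNAs are particular to oocytes, so no list could check the label directly. miR-202, known from gonads, was listed in both arms and summed to 1142, 1023 and 591 CPM. Families linked to cumulus and granulosa cells (miR-132, miR-212, miR-224, miR-383 and miR-503) were all listed, in 8 names, and summed to 1313, 1203 and 1366 CPM. ssc-miR-503 was at 479, 475 and 519 CPM and ssc-miR-132 at 492.6, 468 and 443 CPM. Their part in the profile was not tested, and fewer cells of a type and less RNA per cell cannot be told apart in pooled RNA.

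Families of vessels and blood differed widely in level. miR-126, the miRNA of endothelium, had no count in any of the 3 libraries. For families without a count, here and below, names at 0 and the lack of any name were not told apart. miR-223 of myeloid cells had no count. miR-150 of lymphocytes was at 13.1 CPM in library 1 and at 0 in the others, and miR-142 was at 39.3, 60.2 and 0 CPM. The list of white blood cells, with 4 of 5 families listed, summed to 5615, 5815 and 5038 CPM. In it ssc-miR-146a-5p was at 3377, 3135 and 3136 CPM and ssc-miR-155-5p_R+2 at 1229, 1547 and 916 CPM. The part of such cells in the profile was not tested. Red blood cell families summed to 166 to 254 CPM, with miR-451 at 110, 134 and 62.2 CPM and miR-486 at 99.6, 96.9 and 83.0 CPM.

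Of the 4 fibroblast and smooth muscle families miR-214 had no count, and the others summed to 823 to 1038 CPM. Most of this came from ssc-miR-199a-3p_R-1 at 728, 645 and 515 CPM and ssc-miR-199a-5p at 139, 100 and 114 CPM. Of the muscle families miR-206 had no count, and miR-1 and miR-133a summed to 96.8 to 246 CPM. miR-122 of liver was at 879 to 980 CPM over 2 names, ssc-miR-122-5p_R-2 at 712 ± 76.7 CPM and mdo-miR-122b-5p_R+1 at 201 ± 31.5. The nerve families miR-9, miR-124 and miR-138 summed to 1110 to 1407 CPM, led by ssc-miR-9-2 at 833, 832 and 484 CPM and cfa-miR-138b_R+1_1ss19TG at 249, 338 and 405 CPM.

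Families linked to germ cells and embryos were uneven. The miR-34 and miR-449 families, abundant in male germ cells and ciliated cells, summed to 2078, 2182 and 2203 CPM, led by ssc-miR-34c at 1425, 1317 and 1466 CPM and ocu-miR-34b-3p_1ss10CT at 537, 632 and 470 CPM. Of the early embryo list, ssc-miR-371-5p was at 1286, 1089 and 1172 CPM, while miR-302, miR-367, miR-372 and miR-373 had no count in any library. The epithelial list was miR-205 with little else: cfa-miR-200c was at 1137, 1106 and 1017 CPM and miR-429 had no count. From the DLK1-DIO3 locus, whose miRNAs are expressed from the maternal chromosome in somatic tissue, 4 of 26 families were listed and they summed to 81.2, 20.1 and 38.0 CPM. ssc-miR-127 was at 47.2, 20.1 and 20.7 CPM, and ssc-miR-369 had 8 counts in library 1 and 0 in the others.

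Rank agreement was closer over the more abundant names than over all names. Across all 597 names, which are not independent replicates, Spearman rho was 0.878 for libraries 1 and 2, 0.872 for libraries 1 and 3 and 0.882 for libraries 2 and 3. Over the 274 names with at least 10 counts in each library it was 0.981, 0.969 and 0.975. Of these names 262, 258 and 258 were within a factor of 2 in the 3 pairs. The chi-square statistic per degree of freedom was 4.09, 10.5 and 6.12, so that the libraries differed by more than sampling noise and were kept as 3 samples. It was smallest for libraries 1 and 2.

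A name was listed in all 3 libraries in 352 cases, and these held from 99.7 to 99.8% of the counts. They included 79.0% of the pig names, 57.3% of the names of other species and 32.0% of the PC names, in the same order as the median levels of those classes. Names in a single library numbered 176, with 24 counts at most, and 97 of them were in library 1, which was the deepest, against 33 in library 2 and 46 in library 3.

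**Figure D5:**
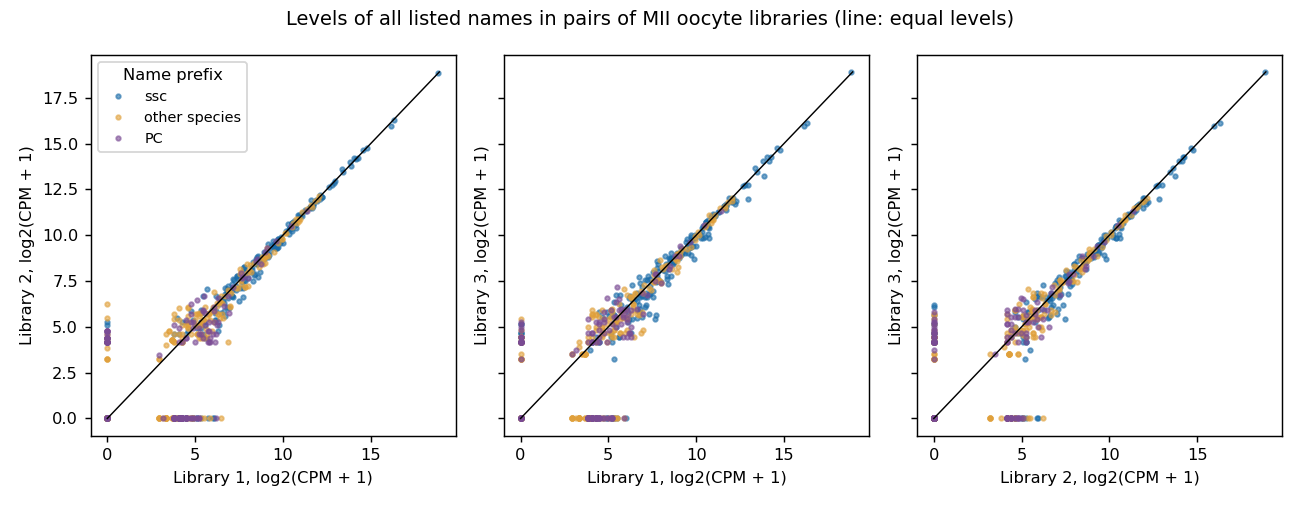
Level of each of the 597 names in pairs of MII oocyte libraries, as log2(CPM + 1) on both axes, coloured by name prefix, with a line at equal levels. Points above about 100 CPM lie close to the line, while PC names and names of other species make up most of those listed at 0 in 1 library.

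Among the names with a mean of at least 100 CPM, the coefficient of variation had a median of 9.99%. It was under 10% in 102 names and over 25% in 25. The 5 most variable were ssc-miR-1_R+1 of muscle at 207, 96.9 and 48.4 CPM, ssc-miR-340 at 199.1, 174 and 41.5 CPM, ssc-miR-374a-5p_R-1 at 160, 126.99 and 51.9 CPM, ssc-miR-424-3p at 183, 83.5 and 96.8 CPM and ssc-miR-6529 at 81.2, 73.5 and 152 CPM. The first 3 of these were lowest in library 3.

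By rho over the 274 names and by chi-square, libraries 1 and 2 were the closest pair, while rho over all 597 names was highest for libraries 2 and 3. Library 3 was below both others by more than a factor of 1.5 in 9 of the names with a mean of at least 100 CPM and above both in 3. For library 1 these numbers were 0 and 3, and for library 2 they were 1 and 1. The names low in library 3 included ssc-miR-202-5p at 930, 886 and 418 CPM, ssc-miR-9-2, ssc-miR-340, ssc-miR-1839-5p at 139, 160 and 72.6 CPM and ssc-let-7f-5p at 7837, 7325 and 4080 CPM. ssc-miR-342_R-2 was among those above, at 301, 304 and 460 CPM.

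The let-7 names were alike in this. All 9 let-7 names with a mean of at least 100 CPM were lowest in library 3, as were 44.3% of all names at that level. The size of the difference varied, from let-7f, above, and ssc-let-7a to ssc-let-7i-5p_R+3 at 2555, 2526 and 2466 CPM and cfa-let-7b at 1871, 1902 and 1802 CPM, which were nearly level. ssc-let-7g was between these, at 4745, 4418 and 3396 CPM. Since miR-205 was highest in library 3, the let-7 share was also taken without it, and was 6.51, 6.17 and 4.71%. Library 3 was therefore lowest on this scale too. Library 3 was also the least deep of the 3, and the part of depth or of library preparation was not tested.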

How the data were processed

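Small RNA was ligated to adapters at both ends, reverse transcribed, amplified by PCR and selected on a gel. The authors deposited estimated counts per small RNA name, with no normalization, in columns headed raw. The caller and its filters are not given in the sources used here; the submitters' processing notes name the build Sscrofa11.1. Each column was matched to its sample by the library name in the labels, with 0 further sample columns in the table. All 60 repeated names had identical lines, which were summed. From the counts, CPM, shares, Spearman rho and the chi-square statistic (names with at least 20 counts in a pair) were computed with Python 3.11.15, pandas 2.3.3 and scipy 1.17.1, as mean ± SD of 3 libraries with no test. Parsers were tested on a set of names with known parts, and class shares on simulated counts. Pig miRNA genes came from RefSeq on the same build. Members, cell type lists and rules were chosen with earlier results of these data known. Named were the 15 leading names and families, the 3 leading names of each class, the 6 leading families with both arms, the 5 most variable names and the leading 2 of each cell type list. Cluster members, further hairpins, other members of families and names that stood apart in 1 library were chosen after their values were seen.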

Additional observations from a re-analysis of the deposited data

How the results depend on the processing

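miR-205 led the families under each alternative that kept it. Counting repeated names once gave 51.5% for the leading family, 77.5% for the 10 leading names, 25.001% for no suffix, 93.8% for pig names and a rho of 0.869. It moved miR-30 ahead of miR-128, and let-7, at 2.28%, behind miR-148 at 3.01% and miR-320 at 2.86%. miR-125 fell to 1.32% and miR-103 to 0.611%. Of the 15 leading families, 13 stayed among the first 15. Pig names alone gave 50.6% for the leading family, 81.0% for the 10 leading names, 28.8% for no suffix and a rho of 0.971. Without ssc-miR-205_R+1 the values were 0.0771% for its family, 56.2% for the 10 leading names, 57.8% for no suffix, 87.7% for pig names and 32.8% for 5p. At 10 counts or more in each library, pig names held 93.9% and rho was 0.975. Names with identical counts taken once gave a rho of 0.895, and Pearson r of log2(CPM + 1) was 0.829. Pairs of libraries ranged from 0.872 to 0.882. Chosen after seeing the data, 5p was 70.6% of names with an arm and 76.6% with arms from general knowledge. Of 21 further shares, 17 moved by more than 1 SD with repeated names once and 21 without miR-205, and of those that pig names alone allow, 14 moved and 5 did not, against 0 with pooled libraries or any library left out. The 0 for a library left out was fixed in advance, since dropping 1 of 3 values cannot move their mean by 1 SD. Pooling only reweights 3 libraries of similar depth, so its 0 could hardly have come out otherwise. Neither result shows that the shares are stable. The other alternatives change by construction which counts enter the total. Arms by position in the hairpin were not run because no hairpin table was used here. No paired analysis was possible because the result comes from no test.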
